A study of Mus musculus with 6 samples.

Results

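The 9 genes described here are Ifit1, Ifit3, Oas2, Oasl2, Isg15, Irf7, Usp18, Gbp2 and Gbp3, a set of interferon-induced and guanylate-binding genes read as a check of whether a hairpin RNA set off an interferon response. They were taken by gene symbol from the platform annotation, out of 19940 rows tested, with the brightest probe set used where a gene had several. Of the 9, 7 had a probe set of their own (a group of array probes that together read 1 transcript), and 2 were read only by a shared one. The probe set of Isg15 also reads Gm9706, and that of Gbp2 also reads its neighbour Gbp2b, so a value given for either gene belongs to both symbols. Values are log2 expression, on which a difference of 1 is a 2-fold difference.

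The cells were V6.5 mouse embryonic stem cells, an established line, each culture carrying a short hairpin RNA that doxycycline (dox) switches on. There were 3 hairpin lines: shRNA1 and shRNA2, both against Pcgf6 (a subunit of a variant polycomb repressive complex), and a Scrambled control. Each line gave 1 array grown with dox at 1 µg/ml and 1 array grown without, so there were 6 arrays, and the induced and uninduced array of a line are called its pair. All 6 cultures shared the strain and the hairpin system, and the induced arrays of all 3 lines shared dox and a hairpin transcript, while Pcgf6 was the intended target in shRNA1 and shRNA2 alone. Pcgf6 itself stood at 9.39 and 9.27 with dox under shRNA1 and shRNA2, at 11.56 and 11.70 without dox, and at 11.82 and 11.80 in the Scrambled pair. The labels do not state how long dox was given or whether a line is a clone or a pool. Each line and dox state was read once, so the spread behind the p-values is that between hairpin lines, and the spread between cultures of 1 line was not measured.

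The growth protocol places the stem cells on DR4 mouse embryo fibroblasts inactivated with mitomycin C, the feeder cells, whose RNA can be in a sample. The 11 stem cell markers, among them Pou5f1, Sox2 and Nanog, averaged 11.73 to 11.89 on 5 arrays and stood highest on the uninduced Scrambled array. The 20 feeder fibroblast markers measured, mostly collagens and other matrix genes, averaged 10.09 without and 10.10 with dox for shRNA1, 10.04 and 10.53 for shRNA2, and 9.25 and 9.78 for Scrambled. All 20 were higher with dox in the shRNA2 pair and in the Scrambled pair, and 10 of 20 in the shRNA1 pair. The median dox minus no dox difference of these markers was 0.01, 0.48 and 0.58 in the shRNA1, shRNA2 and Scrambled pairs, and none passed a test. Fewer cells of a type and less RNA per cell cannot be told apart in these bulk samples. The 10 measured blood cell markers averaged between 6.74 and 7.25, with the pan-leukocyte gene Ptprc at 5.77 to 6.15, the macrophage genes Cd68 at 9.14 to 9.48 and Lyz2 at 8.44 to 10.53. Lyz2 differed by -0.18, 0.68 and 0.24 in the shRNA1, shRNA2 and Scrambled pairs, and Cd68 by -0.19, 0.11 and -0.05. The medians of the 10 markers were -0.07, 0.11 and 0.08 in these pairs, so Lyz2 does not stand for the list. The part of such cells in the results was not tested. Array medians were 7.02 to 7.08 and lower quartiles 5.5 to 5.56.

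Interferons are secreted proteins that cells release after sensing foreign nucleic acid, and double-stranded RNA is the classic trigger. In the cytoplasm it is detected by the helicases RIG-I (Ddx58) and MDA5 (Ifih1) and by the kinase PKR (Eif2ak2), and in endosomes by Tlr3. Type I interferon then acts through the receptor chains Ifnar1 and Ifnar2 and the kinases Jak1 and Tyk2 on STAT proteins, which with Irf9 bind the interferon-stimulated response element (ISRE) in the promoters of induced genes. Interferon gamma acts through its own receptor and a STAT dimer that binds the gamma-activated site (GAS). Long hairpins and some short hairpin vectors are known to set off this pathway, which is why interferon-induced genes are a customary control in knockdown work. Mouse embryonic stem cells are known for a weak interferon response.

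The promoters are shown first because the ISRE is what most of these genes have in common. RefSeq promoter sequences of build GRCm38.p6 were held for 7 of the 9 members, Oas2 and Usp18 being without an entry, and the 250 bases before each start were searched on both strands. The ISRE was searched as GAAA, NN and GAAA in 1 run, N being any base, and the GAS as TTCNNNGAA. At least 1 ISRE match was found in 5 of the 7 members (Ifit1, Ifit3, Isg15, Gbp2 and Gbp3), against 2.98% of all 32851 promoter windows. A member was counted if any of its windows matched, and Gbp3 has 2 windows, whereas the share is over single windows. No GAS match was found in any of the 7, against 7.02% of all windows. A match is a run of letters and not a shown binding site. The stretches that hold the ISRE matches read as follows, 5′ to 3′ in the direction of the gene, with the matched letters in capitals.
Ifit1, chr19:34640773-34640825, plus strand: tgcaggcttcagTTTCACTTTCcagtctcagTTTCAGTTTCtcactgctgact
Ifit3, chr19:34583361-34583428, plus strand: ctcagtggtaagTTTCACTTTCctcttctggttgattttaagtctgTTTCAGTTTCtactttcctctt
Isg15, chr4:156200863-156200908, minus strand: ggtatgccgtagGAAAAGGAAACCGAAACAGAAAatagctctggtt
Gbp2, chr3:142620592-142620625, plus strand: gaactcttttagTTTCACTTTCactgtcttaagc
Gbp3, chr3:142559987-142560026, plus strand: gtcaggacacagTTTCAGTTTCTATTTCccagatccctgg

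Isg15 held 3 overlapping matches, Ifit1, Ifit3 and Gbp3 held 2 each and Gbp2 held 1. The match nearest to the start ended 29 bases before it in Gbp3, 49 in Gbp2, 56 in Isg15, 75 in Ifit1 and 112 in Ifit3. Gbp3 has 2 RefSeq starts, and the window before its other start held no match, nor did the windows of Oasl2 and Irf7. The neighbouring copy Ifit3b (chr19:34607757-34607824) carries the same 68 bases as the stretch printed for Ifit3. Ifit3 and Ifit3b are close copies, so the array may not keep their transcripts apart, and the value of Ifit3 is uncertain for that reason. Gbp2b, which shares the probe set of Gbp2, held 1 match.

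The first comparison asked whether switching on a hairpin of any sequence, with dox, went with higher transcripts of the members. Across the 3 lines 0 of the 9 members passed (limma, induced against uninduced arrays, n = 3 against 3, Benjamini-Hochberg adjusted p between 0.672 and 0.847), where 0% of all 19940 rows passed. At an unadjusted p under 0.05 there were 2 members, Gbp3 and Isg15, of which Gbp3 was higher and Isg15 lower with dox, against 7.17% of all rows. The median difference of the 9 members was -0.07 in the shRNA1 pair, 0.35 in the shRNA2 pair and 0.13 in the Scrambled pair, where the medians of all rows were 0.00, -0.02 and -0.01. Only Oas2 and Gbp2 were higher with dox in all 3 lines, which 15.2% of all rows were, and Isg15 alone was lower in all 3, which 18.5% were.

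**Figure D1:**
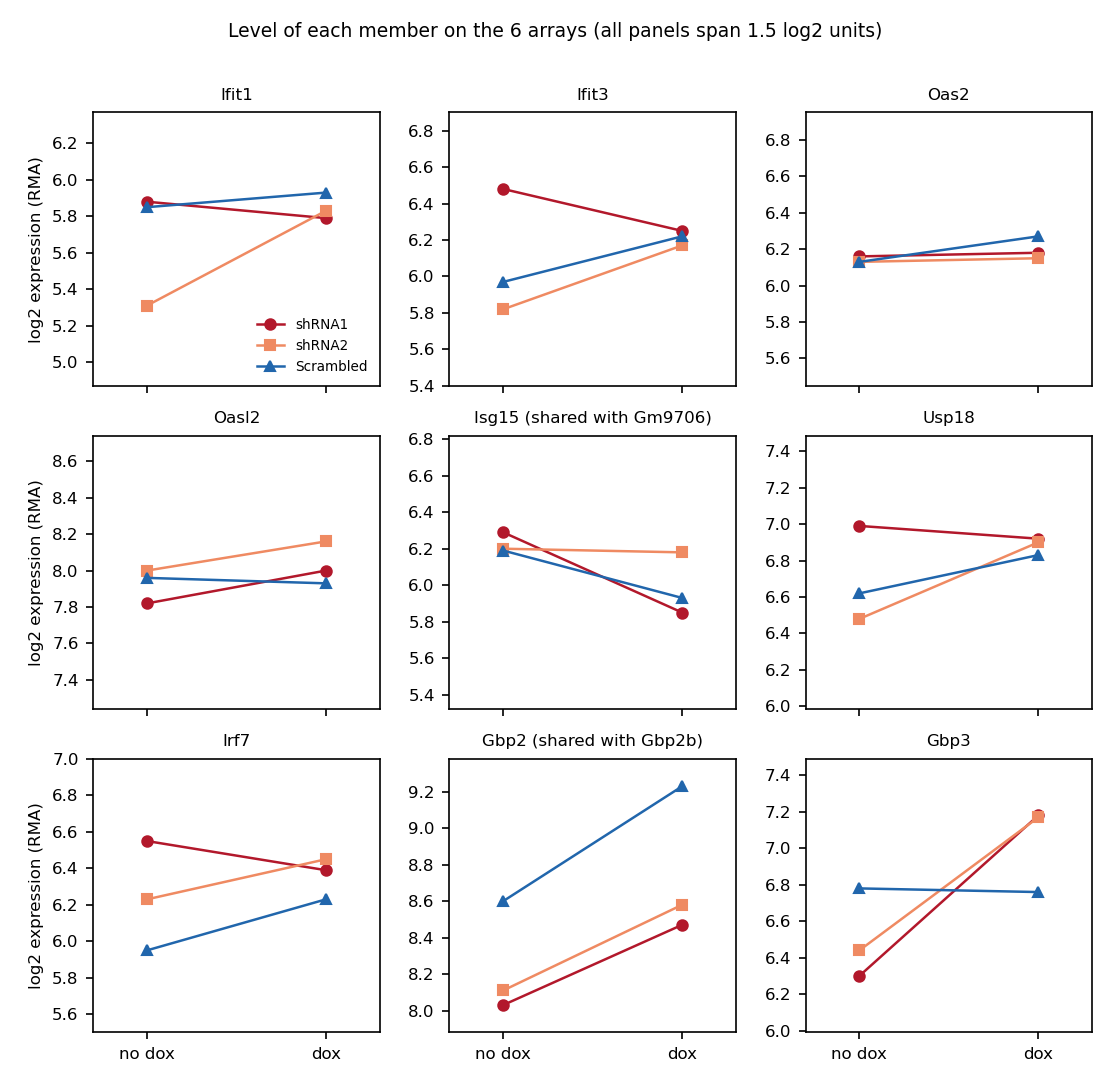
Log2 expression of the 9 members on the 6 arrays, without and with dox, with 1 line joining the 2 arrays of each hairpin line and no error bars because each point is 1 array. Gbp3 climbs from 6.30 and 6.44 to 7.18 and 7.17 in the Pcgf6-hairpin lines and reads 6.78 and 6.76 in Scrambled, and Gbp2 is higher with dox in all 3 lines.

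The Ifit proteins bind viral and other foreign RNA and block its translation, and their genes are among the most strongly induced by type I interferon. Ifit1 measured 5.88 without and 5.79 with dox under shRNA1, 5.31 and 5.83 under shRNA2, and 5.85 and 5.93 in Scrambled. The uninduced shRNA2 array was the low one, and the other 5 arrays lay between 5.79 and 5.93. Across the 3 lines the difference of Ifit1 was 0.17 (SE 0.15, 95% interval -0.18 to 0.52, limma adjusted p = 0.77). Ifit3 measured 6.48 and 6.25 under shRNA1, 5.82 and 6.17 under shRNA2, and 5.97 and 6.22 in Scrambled, each time without dox first. The highest and the lowest array of Ifit3 were both uninduced, so the groups overlapped, and the difference was 0.12 (SE 0.16, 95% interval -0.24 to 0.49, adjusted p = 0.842). The probe set of the copy Ifit3b read 3.92 to 4.29 over the 6 arrays.

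Oas2 is an oligoadenylate synthetase, an enzyme that answers double-stranded RNA by making the messenger that switches on RNase L. Oas2 measured 6.16 without and 6.18 with dox under shRNA1, 6.13 and 6.15 under shRNA2, and 6.13 and 6.27 in Scrambled. It was the steadiest member, with a range of 0.13 over the 6 arrays, and its difference was 0.06 (SE 0.06, 95% interval -0.09 to 0.21, adjusted p = 0.808). Oasl2, a member of the same family with a ubiquitin-like tail, measured 7.82 and 8.0 under shRNA1, 8.0 and 8.16 under shRNA2, and 7.96 and 7.93 in Scrambled. Its arrays with and without dox overlapped, and its difference was 0.11 (SE 0.08, 95% interval -0.09 to 0.30, adjusted p = 0.744).

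Isg15 is a ubiquitin-like protein that is attached to other proteins after interferon, and Usp18 is the protease that takes it off and that also damps the type I receptor. The probe set of Isg15 and Gm9706 measured 6.29 without and 5.85 with dox under shRNA1, 6.20 and 6.18 under shRNA2, and 6.19 and 5.93 in Scrambled. Its induced arrays all lay below its uninduced arrays, a separation in the direction opposite to induction, which 8.07% of all rows showed. The difference was -0.24 (SE 0.10, 95% interval -0.46 to -0.02, adjusted p = 0.672) and did not pass. Usp18 measured 6.99 and 6.92 under shRNA1, 6.48 and 6.90 under shRNA2, and 6.62 and 6.83 in Scrambled. The 3 induced arrays of Usp18 stood close together and the uninduced arrays lay on both sides of them, and the difference was 0.19 (SE 0.12, 95% interval -0.10 to 0.48, adjusted p = 0.703).

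Irf7 is the transcription factor that amplifies type I interferon production once a first wave of interferon has induced it. It measured 6.55 without and 6.39 with dox under shRNA1, 6.23 and 6.45 under shRNA2, and 5.95 and 6.23 in Scrambled. The uninduced Scrambled array was the lowest and the uninduced shRNA1 array the highest, and the difference was 0.11 (SE 0.15, 95% interval -0.23 to 0.45, adjusted p = 0.847).

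Taking these 7 members without the guanylate-binding genes, the differences across the 3 lines ran from -0.24 to 0.19. The highest upper bound of their 95% intervals was 0.52, a 1.43-fold increase. Single pairs ran from -0.44 to 0.52. The fit across the lines took the arrays as 3 against 3 without the pairing by line. With the line as a block the SE was 0.12 for Ifit1 and 0.10 for Irf7, against 0.15 each, and 0.07 for Oas2, against 0.06. Of the 7, Oasl2 alone (mean level 7.98) stood above the median level of all rows, 7.55. The others averaged 5.76 to 6.79, with Ifit1 among the dimmest 25% of rows, and their distance from background was not tested. Of the 7, 2 were higher with dox in the shRNA1 pair, 6 in the shRNA2 pair and 5 in the Scrambled pair. Of all 19940 rows, 10042, 9123 and 9270 were higher in these pairs. Among the 7, Ifit1, Ifit3, Usp18 and Irf7 were below 0 in the shRNA1 pair and above 0 in the others. These 4 were grouped by their signs after the values were seen, and the share of all rows with the same signs was not counted. The feeder markers had medians of 0.01 in the shRNA1 pair and of 0.48 and 0.58 in the others. Across the 3 lines Ifit1, Ifit3, Usp18 and Irf7 differed by 0.17, 0.12, 0.19 and 0.11. With the mean of the feeder markers as a covariate these differences were 0.24, 0.08, 0.14 and -0.04 (limma adjusted p 0.9 to 0.973). Whether feeder RNA had a part in the signs of these 4 genes was not tested.

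**Figure D2:**
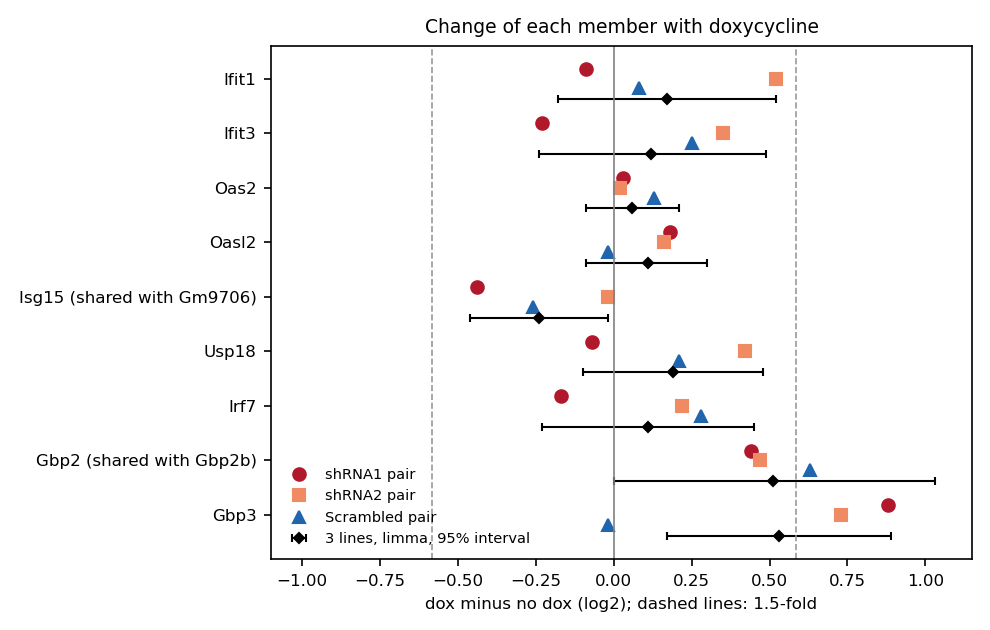
Dox minus no dox difference (log2) of each member in the 3 pairs, with the difference across the 3 lines and its 95% interval from limma in black and dashed lines at 1.5-fold. Most points lie inside the dashed lines, the exceptions being Gbp3 at 0.88 and 0.73 in the Pcgf6-hairpin pairs and Gbp2 at 0.63 in the Scrambled pair.

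Gbp2 and Gbp3 encode guanylate-binding proteins, large GTPases that interferon gamma above all induces and that attack the vacuoles of intracellular microbes. The probe set of Gbp2 and Gbp2b measured 8.03 without and 8.47 with dox under shRNA1, 8.11 and 8.58 under shRNA2, and 8.60 and 9.23 in Scrambled. It was higher with dox in each pair, by 0.44, 0.47 and 0.63, but the uninduced Scrambled array stood above both induced Pcgf6-hairpin arrays, so the groups overlapped. The difference across the lines was 0.51 (SE 0.22, 95% interval 0.00 to 1.03, limma adjusted p = 0.672). It was 0.28 without the induced Scrambled array, 0.69 without the uninduced Scrambled array and 0.76 with the feeder score as a covariate, and did not pass in any of these fits. With the hairpin line as a block, which removes the offset between lines, it was 0.51 (SE 0.07, limma adjusted p = 0.238), also not past the threshold. In that blocked fit 0 rows passed, and 0.238 was the smallest adjusted p of any row. A probe set that reads Gbp2b alone measured 6.55 and 6.84 under shRNA1, 6.90 and 7.0 under shRNA2, and 6.99 and 7.48 in Scrambled, again higher with dox in each pair, and its difference was 0.29 (SE 0.18, adjusted p = 0.691).

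Gbp3 measured 6.30 without and 7.18 with dox under shRNA1, 6.44 and 7.17 under shRNA2, and 6.78 and 6.76 in Scrambled. Both induced Pcgf6-hairpin arrays lay above all other arrays, and the Scrambled arrays fell between the induced and the uninduced Pcgf6-hairpin arrays. Over the 3 lines the difference of Gbp3 was 0.53 (SE 0.16, 95% interval 0.17 to 0.89, adjusted p = 0.672). The median difference of the feeder markers was 0.01 in the shRNA1 pair, where Gbp3 differed by 0.88, 0.48 in the shRNA2 pair, where Gbp3 differed by 0.73, and 0.58 in the Scrambled pair, where Gbp3 differed by -0.02. The part of feeder RNA in the values of Gbp3 was not tested.

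The second comparison asked which members changed with dox where the hairpin targets Pcgf6. Gbp3 rose from 6.37 ± 0.10 to 7.18 ± 0.01 (SD, n = 2), by 0.81 (SE 0.09, 95% interval 0.59 to 1.03, limma adjusted p = 0.0437), a 1.75-fold increase. It was the 1 member of 9 that passed, where 0.201% of all rows passed in either direction and 0.191% were higher. At 1.5-fold Gbp3 was higher under both hairpins, which 0.336% of all rows were. The members were chosen with earlier results of these data known. The shares of all rows, here and in the other comparisons, are therefore a description only. The adjusted p of Gbp3 was between 0.179 and 0.215 without any 1 of the 4 Pcgf6-hairpin arrays, and 0.276 with the feeder score as a covariate, while its difference stayed between 0.74 and 0.88 in these fits.

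The other 8 members did not pass in the Pcgf6-hairpin lines. Gbp2 measured 0.45 (SE 0.09, 95% interval 0.24 to 0.67, limma adjusted p = 0.227), and with Gbp3 it made 2 members at an unadjusted p under 0.05, against 8.76% of all rows. Ifit1 measured 0.21 (SE 0.18), Usp18 0.18 (SE 0.16), Oasl2 0.17 (SE 0.11) and Isg15 -0.23 (SE 0.13). Ifit3, Irf7 and Oas2 measured 0.06, 0.03 and 0.02, and the adjusted p of these 7 members lay between 0.664 and 0.972.

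At 1.5-fold in a single pair, which carries no test, Gbp3 was the 1 member higher in the shRNA1 pair and again in the shRNA2 pair, and Gbp2 the 1 member higher in the Scrambled pair. The shares of all rows past 1.5-fold upwards were 0.627%, 2.17% and 1.49% in the 3 pairs. No member was lower by 1.5-fold in any pair, and 0.241%, 0.446% and 0.211% of all rows were. None of the 9 members had its 3 induced arrays all above its 3 uninduced arrays, which 4.08% of all rows had.

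The third comparison asked whether the dox response of the Pcgf6-hairpin lines differed from that of the Scrambled line, whose arrays are single and were taken to vary like the others. None of the 9 members passed (limma adjusted p between 0.496 and 0.999), where 0.0702% of all rows did, and Gbp3 was the 1 member at an unadjusted p under 0.05, against 4.55% of all rows. The difference in response was 0.83 for Gbp3 (SE 0.16, 95% interval 0.45 to 1.21, adjusted p = 0.496) and -0.17 for Gbp2 (SE 0.16, 95% interval -0.55 to 0.20, adjusted p = 0.999). After adjustment the rise of Gbp3 under the Pcgf6 hairpins was not shown to differ from its difference in the Scrambled pair. For the other 7 members the difference in response lay between -0.25 for Irf7 and 0.19 for Oasl2.

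Before induction the lines were compared as well, uninduced Pcgf6-hairpin arrays against the uninduced Scrambled array (n = 2 against 1). The Scrambled side is a single array taken to vary like the other groups, so a difference between the lines and a deviation of that array cannot be told apart. None of the 9 members passed (limma adjusted p between 0.294 and 0.991), where 0% of all rows passed, and 3 members had an unadjusted p under 0.05, against 8.06% of all rows. These were Gbp2, lower in the Pcgf6-hairpin lines by 0.53 (SE 0.11), Gbp3, lower by 0.41 (SE 0.11), and Irf7, higher by 0.44 (SE 0.15). The feeder markers averaged 10.09 and 10.04 without dox under shRNA1 and shRNA2, and 9.25 without dox in Scrambled. All 20 of these markers were measured in the same fit, 16 with an unadjusted p under 0.05 and 0 past the threshold, and their part in the members' differences was not tested.

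Gbp3 and Gbp2 lie in a run of guanylate-binding genes on chromosome 3, in the RefSeq order Gbp5, Gbp7, Gbp3, Gbp2b, Gbp2. The pair differences, for shRNA1, shRNA2 and Scrambled, were -0.26, -0.20 and -0.10 for Gbp5 and 0.11, 0.76 and 0.24 for Gbp7 on one side of Gbp3. A second run of the family lies on chromosome 5, where Gbp4 measured 0.60, 0.22 and 0.31, Gbp8 0.11, -0.09 and -0.20, Gbp9 -0.13, 0.06 and -0.10, and Gbp11 0.30, -0.05 and -0.25. The genes of the chromosome 5 run are close copies, and a further probe set reads 6 of them together, so their separate values are uncertain. Gbp5, Gbp8 and Gbp11 averaged 4.66, 5.36 and 4.33, below the array lower quartiles of 5.5 to 5.56. None of Gbp5, Gbp7, Gbp4, Gbp8, Gbp9 and Gbp11 passed across the lines or in the Pcgf6-hairpin lines.

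**Figure D3:**
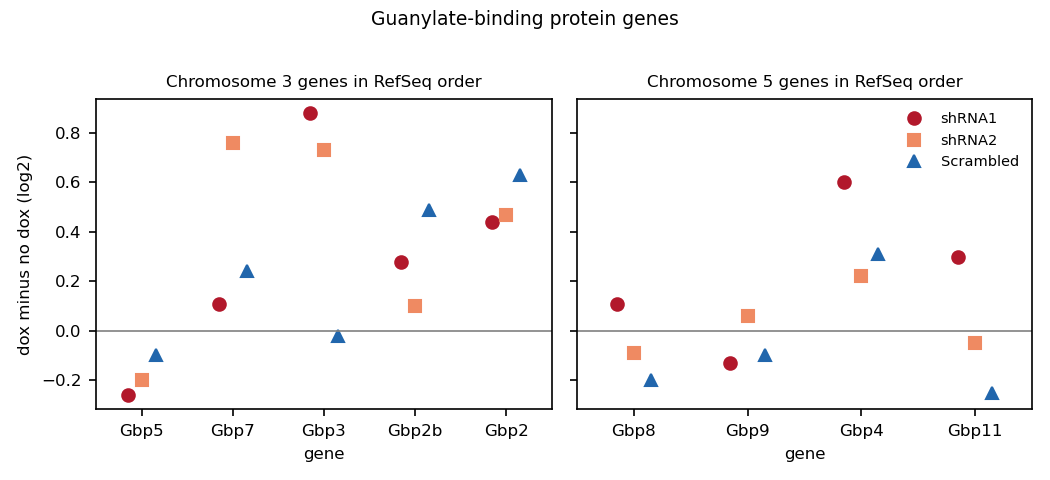
Dox minus no dox difference (log2) of the guanylate-binding protein genes with values, in RefSeq order along chromosome 3 (left) and chromosome 5 (right), 1 point per hairpin line. Gbp2, Gbp2b, Gbp7 and Gbp4 lie above 0 in all 3 lines and Gbp3 in the Pcgf6-hairpin lines alone. Gbp5, at a low mean level of 4.66, lies below 0 in all 3.

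Of the other guanylate-binding and immunity-related GTPases, 9 of the 16 listed had a probe set of their own. Of these, 0 passed across the 3 lines or in the Pcgf6-hairpin lines. The shares of all rows were 0% across the lines and 0.201% in the Pcgf6-hairpin lines, also for the lists below. That 0 genes of a list passed is therefore no sign that the list was unchanged. Irgm1, an immunity-related GTPase of autophagy, measured 9.03 without and 9.71 with dox under shRNA1, 9.28 and 9.61 under shRNA2, and 8.91 and 9.37 in Scrambled. Its 3 induced arrays all lay above its uninduced arrays, with a difference of 0.49 (SE 0.12, limma adjusted p = 0.672). Of the 9 measured, 2 were separated upwards in this way, Irgm1 and Gbp7, and 2 downwards, Gbp5 and Iigp1. Gbp5 read 4.48 to 4.79 and Iigp1 4.05 to 4.26 over the 6 arrays, below the array lower quartiles of 5.5 to 5.56. Their distance from background was not tested. Of all rows 4.08% were separated upwards and 8.07% downwards. Gbp4 differed by 0.38 (SE 0.26) and Gbp7 by 0.37 (SE 0.13) across the lines. The list had medians of 0.11, 0.06 and -0.10 in the shRNA1, shRNA2 and Scrambled pairs.

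The other interferon-induced genes formed a list of 43, of which 39 were measured and 0 passed in either comparison. Their medians were 0.02, 0.08 and 0.04 in the shRNA1, shRNA2 and Scrambled pairs, against 0.00, -0.02 and -0.01 for all rows. The strongest mean differences belonged to the antiviral zinc finger gene Zc3hav1 (0.43, SE 0.10), to Xaf1 (0.40, SE 0.11) and to Ifi203 (0.38, SE 0.20), each with an adjusted p of 0.672 to 0.676 by limma. Zc3hav1 was higher in each pair, by 0.26, 0.71 and 0.33, and Xaf1 by 0.70, 0.27 and 0.24, whereas Ifi203 differed by -0.01, 1.01 and 0.13. Of the 39, 2 had their induced arrays all above their uninduced arrays, Zc3hav1 and Xaf1, and 1 all below. Of all rows 4.08% and 8.07% were separated in these directions. The membrane protein genes Ifitm2 and Ifitm1, at 12.82 to 12.93 and 12.62 to 12.93 over the 6 arrays, differed by -0.02 each.

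Upstream of these genes, the interferon ligands gave 8 measured of 10 listed and 0 past the threshold. Ifnk, Ifng and Ifnl2 had the strongest mean differences, at -0.22, -0.20 and -0.18, all towards lower values with dox, and Ifna5 differed by -0.03. In the shRNA1, shRNA2 and Scrambled pairs Ifnk differed by -0.19, -0.47 and 0.01. Ifng differed by -0.01, -0.40 and -0.19, and Ifnl2 by -0.03, -0.36 and -0.14, so the shRNA2 pair was the lowest for each. Ifnk averaged 4.93, below the array lower quartiles of 5.5 to 5.56, Ifng 6.48 and Ifnl2 8.35. The medians of the ligand list were -0.03, -0.05 and -0.09 in the 3 pairs. Of the 8 ligands, 0 were separated upwards and 2 downwards, against 4.08% and 8.07% of all rows. Several alpha interferon genes share probe sets and were not read one by one.

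All 9 listed receptor chains and kinases were measured, and 0 passed, where 0% of all rows passed across the lines. Of the 9, 2 had their induced arrays all above their uninduced arrays and 0 all below, against 4.08% and 8.07% of all rows. Jak2 and Jak1, the kinases bound to the receptors, differed by 0.38 (SE 0.14) and 0.34 (SE 0.14) across the lines, the receptor chain gene Il10rb by 0.33 (SE 0.18) and Ifngr2, a chain of the interferon gamma receptor, by 0.30 (SE 0.20), with adjusted p between 0.672 and 0.715 by limma. This list had medians of 0.05, 0.26 and 0.35 in the shRNA1, shRNA2 and Scrambled pairs, beside feeder marker medians of 0.01, 0.48 and 0.58. The part of feeder RNA in these values was not tested.

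Among the sensors and adaptors, 17 of 19 were measured and 0 passed. The RNA sensor gene Ifih1 measured 6.22 without and 6.58 with dox under shRNA1, 5.93 and 6.46 under shRNA2, and 5.89 and 6.25 in Scrambled. Its induced arrays all lay above its uninduced arrays, by a difference of 0.42 (SE 0.12, 95% interval 0.14 to 0.69, limma adjusted p = 0.672). Of the 17 genes 2 were separated upwards in this way and 0 downwards, against 4.08% and 8.07% of all rows. Sting1, the adaptor of DNA sensing, differed by 0.08, 0.86 and 0.43 in the 3 pairs, the kinase gene Ikbke by 0.21, 0.25 and 0.12, and the RIG-I gene Ddx58, at 10.00 to 10.17 over the 6 arrays, by 0.06, 0.09 and 0.14. Traf6 differed by 0.08 (SE 0.08) across the lines.

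The transcription factor list gave 9 measured of 11 and 0 past the threshold. Of the 9, 1 was separated upwards and 0 downwards, against 4.08% and 8.07% of all rows. Irf2 differed by 0.36 (SE 0.15), the NF-kappaB subunit gene Rela by 0.20 (SE 0.08), Irf1 by 0.18 (SE 0.15) and Stat3 by 0.08 (SE 0.11). A dimmer second probe set of Irf1 went the other way, with a mean difference of -0.14. All 10 negative regulators were measured and 0 passed: Ptpn6, Ptpn11 and the cytokine signalling suppressor gene Socs3 differed by -0.08, 0.07 and -0.05, and Trim28 by 0.01. The machinery that cuts and loads hairpin RNA was measured in full, with 10 of 10 genes and 0 past the threshold. Drosha and Xpo5, which trim and export hairpin precursors, differed by -0.03 (SE 0.07) and 0.04 (SE 0.06), and Ago3, Prkra and Ago4 by 0.14, -0.09 and 0.05.

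**Figure D4:**
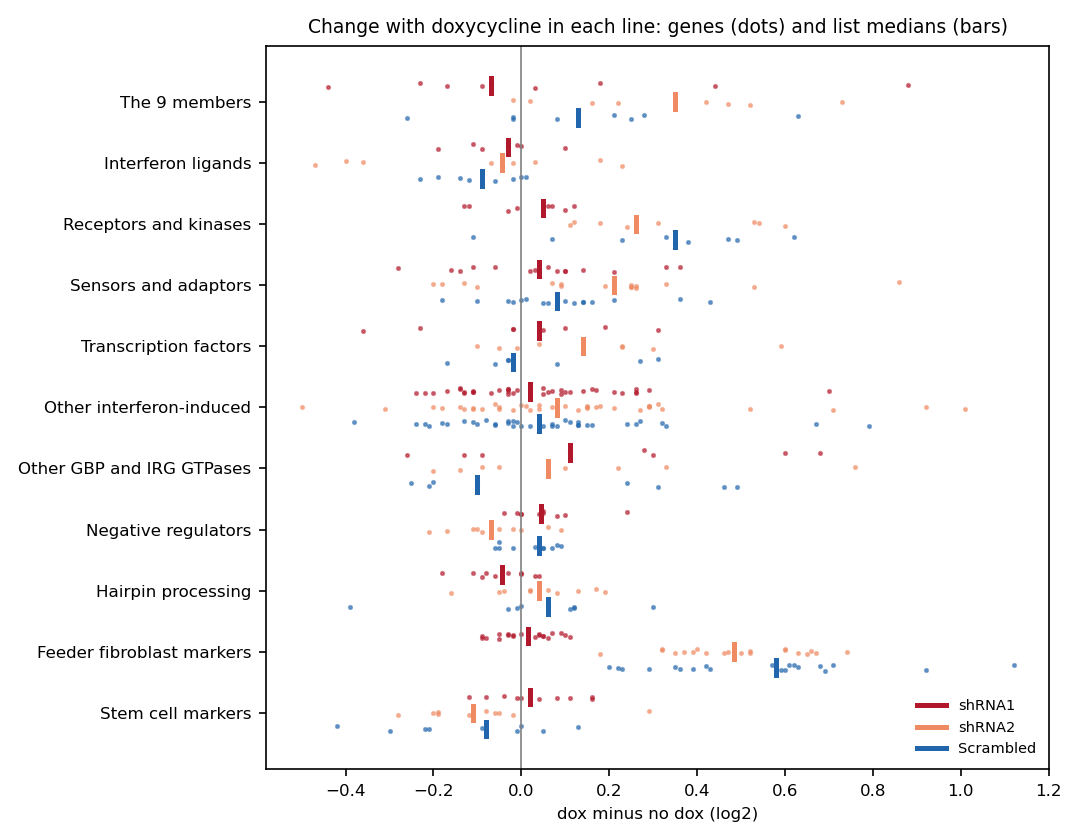
Dox minus no dox difference (log2) of single genes (dots) and list medians (bars) in the shRNA1, shRNA2 and Scrambled pairs. The feeder markers stand at medians of 0.01, 0.48 and 0.58, the receptors and kinases at 0.05, 0.26 and 0.35, and the other interferon-induced genes at 0.02, 0.08 and 0.04.

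The genes whose values over the 6 arrays were most like the mean of the 9 members, each centred on its own mean, were Dusp22, Nuak1, Dstyk, Hspb8 and Plagl1, with Pearson's r of 0.995, 0.985, 0.984, 0.979 and 0.963. They came from 1615 genes outside the interferon lists with a level at or above the median and a range of at least 0.5, and with 6 arrays and so many genes such values are a description only. The mean of the 9 members was 6.72 without and 6.78 with dox under shRNA1, 6.52 and 6.84 under shRNA2, and 6.67 and 6.81 in Scrambled, so the uninduced shRNA2 array was its lowest point. Dusp22 measured 8.33 and 8.41, 8.02 and 8.57, and 8.24 and 8.48 on the same arrays. The feeder markers were highest on the induced shRNA2 array and lowest on the uninduced Scrambled array.

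**Figure D5:**
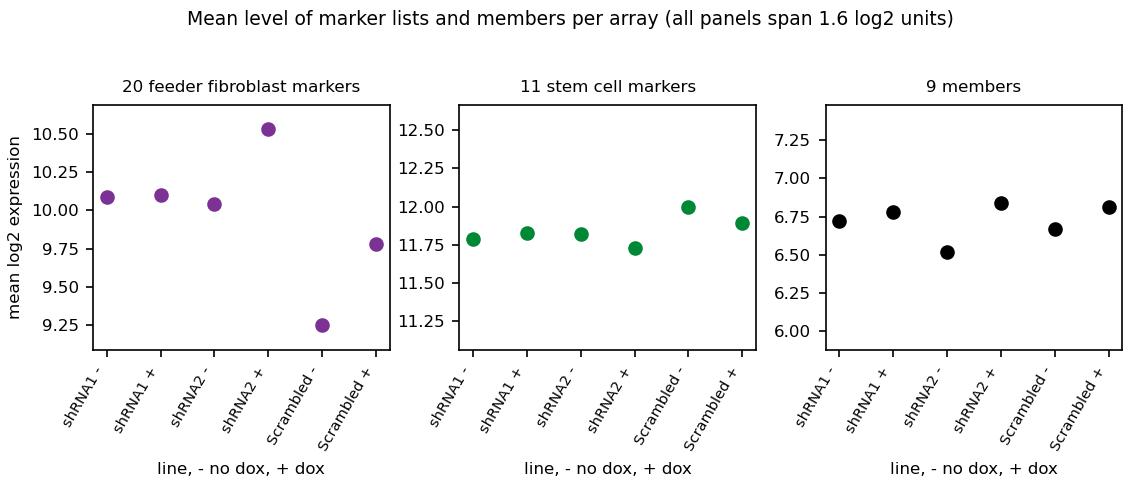
Mean log2 expression per array of the 20 feeder fibroblast markers, the 11 stem cell markers and the 9 members, in panels of equal span. The feeder mean runs from 9.25 to 10.53, the stem cell mean from 11.73 on the induced shRNA2 array to its highest on the uninduced Scrambled array, and the mean of the members from 6.52 to 6.84.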

How the data were processed

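Total RNA of 6 cultures was hybridised to GeneChip Mouse Gene 1.0 ST arrays. Per the submitters' processing notes, the authors made the deposited log2 values with Affymetrix Power Tools and RMA, which sets the arrays to a common distribution; the sources used here give no versions, options or genome build. Of 35556 probe sets, those with 1 symbol gave 19938 genes, and the 2 shared probe sets of Isg15 and Gbp2 were added. Genes named on lists were matched by symbol, RefSeq synonym or Entrez identifier, 111 of 128 beside the members having a row. limma 3.58.1 in R 4.3.3 was fitted over all 19940 rows: 2 groups (dox, no dox) for the comparison across the lines, and 4 group means for the others, two-sided, with Benjamini-Hochberg adjustment and a threshold of 0.05. SE and 95% intervals are limma's moderated ones. Fits were tested on simulated data without offsets between lines and with changes larger than those of the members. That test therefore does not show how well changes of the members' size are found.

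The hairpin line pairs arrays, since both arrays of a pair come from 1 line; deviations of same-line arrays from their group means correlated at 0.176, 0.323 and 0.377. Members and lists were chosen with earlier results of these data known. Genes were named by a rule: the members; per list the 3 strongest mean differences and the 2 highest levels; and the 5 genes most like the members. Irgm1, Gbp4 and others satisfied both parts. Gbp5, Gbp8, Gbp9, Gbp11, Gbp2b, Iigp1, Ifit3b, Pcgf6, Ptprc, Cd68, Lyz2 and 3 stem cell markers were named outside it, some after their values were seen.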

Additional observations from a re-analysis of the deposited data

How the results depend on the processing

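The number of arrays limits precision: 1 array per line and state, and RMA removes a change shared by most genes. Across the 3 lines the count of rows past the threshold was 0 in all alternatives except without the induced Scrambled array, where it was 54, and left-out arrays gave 0 to 54; no member passed in any of them. For dox in the Pcgf6-hairpin lines the count was 40, and it was 62 with an intensity trend, 7 without the dimmest 50% of genes, 23 with the feeder score as a covariate and 14 to 40 with an array left out. The members past the threshold there, 1 in the fit reported, numbered 0 without the dimmest 50% (which drops Gbp3 from the test and keeps 2 members), 0 with the feeder score and 0 to 1 with an array left out. The difference in response gave 14 rows, and 22 with median centring, 9 and 4 without the dimmest 25% and 50%, 23 with the hairpin line as a replicate block, 3 with the feeder score and 0 to 4 with an array left out. The pairing by hairpin line changed no call of a member. With the feeder score Irf7 measured -0.04 across the lines and -0.03 in the Pcgf6-hairpin lines, and Isg15 -0.60 before induction; with median centring Oas2 measured -0.02 before induction.
With each array left out in turn, the ranges across the lines were -0.02 to 0.27 for Ifit1, -0.01 to 0.32 for Ifit3 and -0.03 to 0.27 for Irf7, with 0.03 to 0.09 for Oas2, 0.04 to 0.16 for Oasl2, -0.34 to -0.17 for Isg15, 0.08 to 0.33 for Usp18, 0.28 to 0.69 for Gbp2 and 0.43 to 0.67 for Gbp3. In the Pcgf6-hairpin lines they were -0.07 to 0.50 for Ifit1, -0.27 to 0.39 for Ifit3, -0.13 to 0.19 for Irf7 and -0.07 to 0.43 for Usp18, with 0.01 to 0.04 for Oas2, 0.08 to 0.26 for Oasl2, -0.40 to -0.06 for Isg15 and 0.40 to 0.51 for Gbp2. For the difference in response they were -0.15 to 0.42 for Ifit1, -0.52 to 0.14 for Ifit3, -0.13 to 0.20 for Isg15 and -0.28 to 0.22 for Usp18, with 0.10 to 0.28 for Oasl2 and -0.42 to -0.09 for Irf7. Before induction they were -0.54 to 0.03 for Ifit1, -0.15 to 0.51 for Ifit3, -0.13 to 0.04 for Oasl2 and -0.14 to 0.36 for Usp18, with 0.28 to 0.60 for Irf7 and 0.01 to 0.10 for Isg15. The causes of these shifts were not tested. The comparison of responses could not be fitted without a Scrambled array, nor the comparison before induction without the uninduced Scrambled array.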
